A study of Rattus norvegicus with 6 samples.

Results

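The 8 genes described here encode the proteins that bring cystine into the cell and make, reuse and break down glutathione. They were taken by gene symbol from a table of 34510 genes: Slc7a11, Slc3a2, Gclc, Gclm, Gss, Gsr, Gpx1 and Chac1. All 8 were found once each, and all 8 were among the 14808 genes tested, those that reached 0.5 FPKM in 3 or more libraries. The samples were ventricular heart muscle cells from newborn rats, kept in culture and sequenced as poly(A) RNA in 3 libraries titled Trim28 and 3 titled Bgal. The series' design text names an adenovirus expressing TRIM28, a chromatin corepressor, and places the study in ferroptosis, a cell death driven by iron and lipid peroxides. The sources used here do not expand the name Bgal, and they give no virus dose, time after infection, batch or age beyond neonatal, so the groups are called by their titles. They also do not say whether libraries came from separate cultures. The p-values set group differences against the variation between these libraries, which may therefore be technical.

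Glutathione is the main small thiol of animal cells and the electron donor of the glutathione peroxidases. Its supply of cysteine comes largely as cystine, taken up by the exchanger of SLC7A11 and SLC3A2. The ligase of GCLC and GCLM joins cysteine to glutamate, GSS adds glycine, GPX1 spends glutathione on peroxides, GSR restores the oxidised form, and CHAC1 degrades it. In heart muscle cells this system limits lipid peroxidation, and block of cystine uptake is a standard trigger of ferroptosis.

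Trim28 itself stood at 2923, 2890 and 980 FPKM in Trim28 replicates 1 to 3, against 81.6, 87.8 and 77.6 FPKM in Bgal replicates 1 to 3. FPKM are fragments scaled by gene length and library total. Reads assigned to genes, recovered from the FPKM, ranged from 26146166 to 28298731 in the Trim28 libraries and from 28574951 to 34593292 in the Bgal libraries. Cardiomyocyte markers were high throughout, with a summed level of 9 markers of 19571 to 19866 FPKM in the Trim28 libraries and 16152 to 18568 FPKM in the Bgal libraries. Of these 9, 4 were called higher and 3 (Tnni3, Pln and Tnnt2) lower. Actc1, at 9018 FPKM in Trim28 and 5714 FPKM in Bgal, carried the higher sum: the other 8 summed to 10624 to 10770 FPKM in Trim28 and 11411 to 12203 FPKM in Bgal. Markers of other cells differed between the groups. The sum of 8 fibroblast markers was 773 to 837 FPKM in Trim28 and 434 to 453 FPKM in Bgal, with 7 of 8 called higher. For smooth muscle and mural cells, the sum of 8 markers was 1620 to 1718 FPKM in Trim28 and 761 to 1017 FPKM in Bgal, with 7 called higher. The sum of 7 leukocyte markers was 57.0 to 57.9 FPKM in Trim28 and 24.0 to 24.3 FPKM in Bgal, and all 5 that were tested were called higher. Kcnj8 of the mural list and Adgre1 of the leukocyte list reached 0.5 FPKM in the Trim28 libraries alone. Kcnj8 averaged 0.935 FPKM in Trim28 and 0.403 FPKM in Bgal, and Adgre1 0.746 FPKM and 0.107 FPKM. Both were tested only because they were high in Trim28, so their calls carry no weight in these counts. The sum of 7 endothelial markers was 89.8 to 92.8 FPKM in Trim28 and 39.4 to 47.5 FPKM in Bgal, with 2 of 3 tested called higher and 1, Kdr, lower. Eng alone carried that difference, at 82.3 FPKM in Trim28 and 33.0 FPKM in Bgal, and the other 6 summed to 8.76 to 9.71 FPKM in Trim28 and 10.2 to 10.9 FPKM in Bgal. For the fibroblast, mural and leukocyte lists the sum without the most abundant gene was still higher in every Trim28 library. No marker of these lists was at 0 in every library. The part of these cells in the results below was not tested, and in bulk samples fewer cells of a type and less RNA per cell cannot be told apart.

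Of the 8 genes, 3 rose (Gclc, Gpx1 and Slc3a2), 2 fell (Gclm and Gss) and 3 did not pass (Slc7a11, Gsr and Chac1) in limma's test on log2(FPKM + 1) at an adjusted p of 0.05. Over all 14808 tested genes 20.1% were called higher, 21.1% lower and 41.2% in either direction, so calls were common in this comparison. The groups did not overlap for 7 of the 8 genes, 5 with Trim28 above and 2 with Trim28 below, while 53.8% of all tested genes had no overlap. The median log2 change of the 8 genes was 0.26, beside -0.02 over all tested genes. Changes were moderate in size: the largest was that of Gclc, larger than the change of 84.1% of tested genes regardless of sign.

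**Figure D1:**
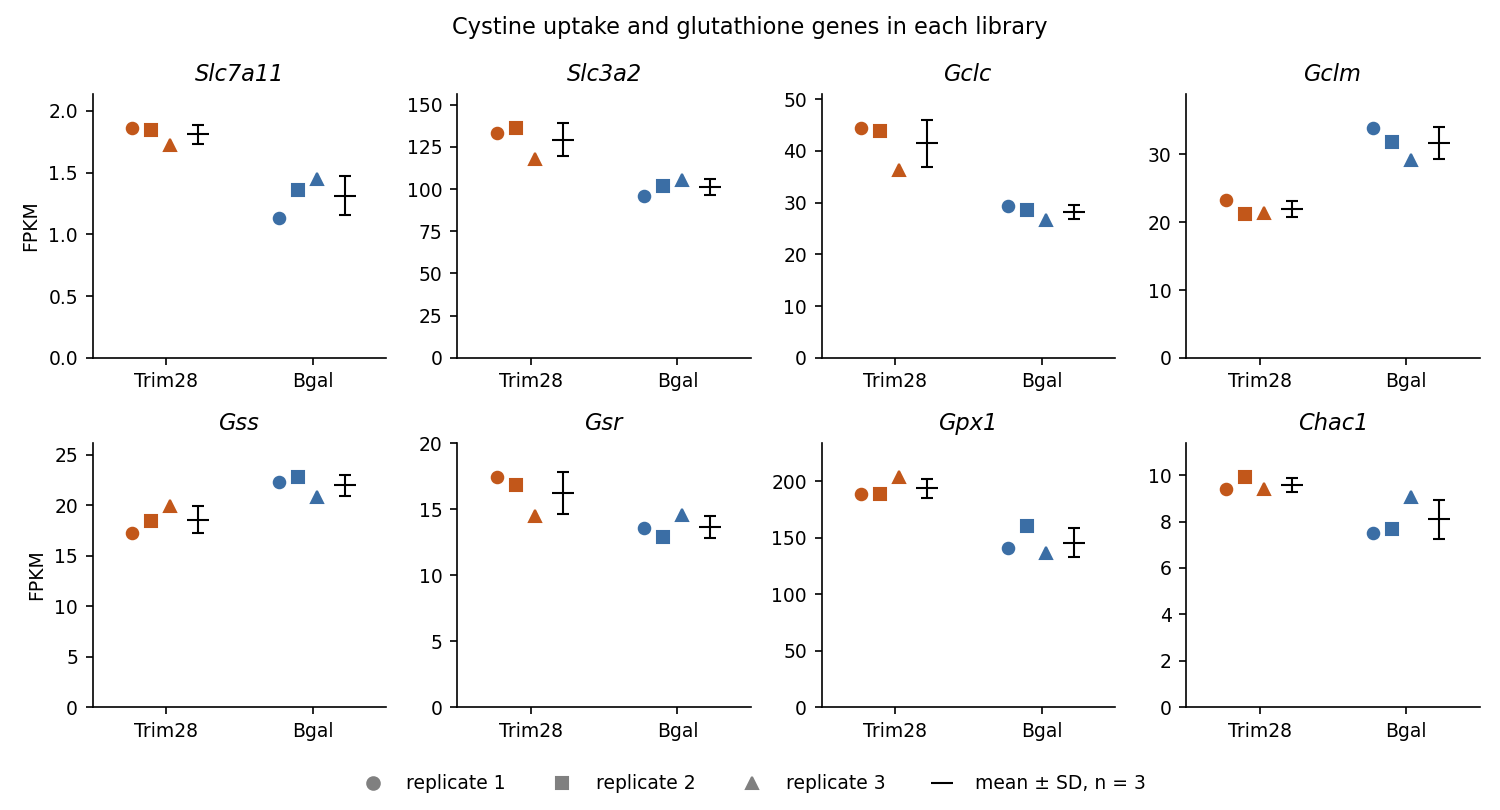
FPKM of the 8 genes in each library, Trim28 on the left and Bgal on the right of each panel, with a separate axis from 0 for each gene; symbols mark replicates 1 to 3 and bars the mean ± SD (n = 3). The groups overlap for Gsr alone, where Trim28 replicate 3 at 14.5 FPKM lies among the Bgal libraries.

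The levels spanned a wide range. In Trim28 libraries the order of mean FPKM, which is per length, was Gpx1, Slc3a2, Gclc, Gclm, Gss, Gsr, Chac1 and Slc7a11. The order in Bgal libraries differed in that Gclm stood above Gclc. Gss and Gsr overlapped in the Trim28 libraries, and Gclm and Gclc overlapped in the Bgal libraries, while all other neighbours in these orders were apart in every library. Gpx1 stood above 97.7% of tested genes in Trim28 and above 96.8% in Bgal. Slc7a11 stood above 21.2% of tested genes in Trim28 and above 16.8% in Bgal, with 352 to 462 reads per library. Chac1 likewise rested on few reads, 350 to 489 per library, against 2531 to 3776 for Gclc.

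The subunits of glutamate-cysteine ligase, the enzyme of the first and usually limiting step, moved in opposite directions. Gclc (ENSRNOG00000006302, chromosome 8, 85059051 to 85097468, plus strand, in the deposited table, which names no genome build) encodes the catalytic subunit. It stood at 44.4, 43.9 and 36.3 FPKM in Trim28 replicates 1 to 3, against 29.3, 28.6 and 26.6 FPKM in Bgal replicates 1 to 3. Every Trim28 library was above every Bgal library, with Trim28 replicate 3 the lowest of its group. The mean was 41.5 ± 4.55 FPKM in Trim28 and 28.2 ± 1.38 FPKM in Bgal (SD, n = 3 each), a 1.47-fold rise, with a log2 change of 0.54 ± 0.08 (SE; limma adjusted p = 0.00223).

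Gclm (ENSRNOG00000013409, chromosome 2, 225827504 to 225847874, plus strand) encodes the modifier subunit, which lowers the enzyme's need for glutamate and its inhibition by glutathione. Its level was 23.3, 21.2 and 21.3 FPKM in Trim28 libraries and 33.9, 31.9 and 29.2 FPKM in Bgal libraries. All 3 Trim28 libraries lay below all 3 Bgal libraries. Gclm fell to 21.9 ± 1.17 FPKM in Trim28, against 31.6 ± 2.38 FPKM in Bgal (SD, n = 3 each), with a log2 change of -0.51 ± 0.07 (SE; limma adjusted p = 0.0012). The calls for Gclc and Gclm were kept in all 14 alternative settings of the fit.

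The ratio of Gclc to Gclm FPKM does not depend on the library total. It was 1.91, 2.07 and 1.70 in Trim28 libraries and 0.864, 0.898 and 0.913 in Bgal libraries. By FPKM, which divides by the annotated gene length, Gclc thus stood above Gclm in every Trim28 library and in no Bgal library. The mean ratio was 1.89 ± 0.187 in Trim28 and 0.892 ± 0.0255 in Bgal (SD, n = 3 each). The log2 difference was 1.08, a 2.12-fold change of the ratio. Since neither gene's groups overlapped and they moved in opposite directions, the ratio had to separate the groups, and no test of it is given. The sum of both transcripts differed less, at 63.4 ± 5.23 FPKM in Trim28 and 59.8 ± 3.74 FPKM in Bgal, with overlapping libraries.

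**Figure D2:**
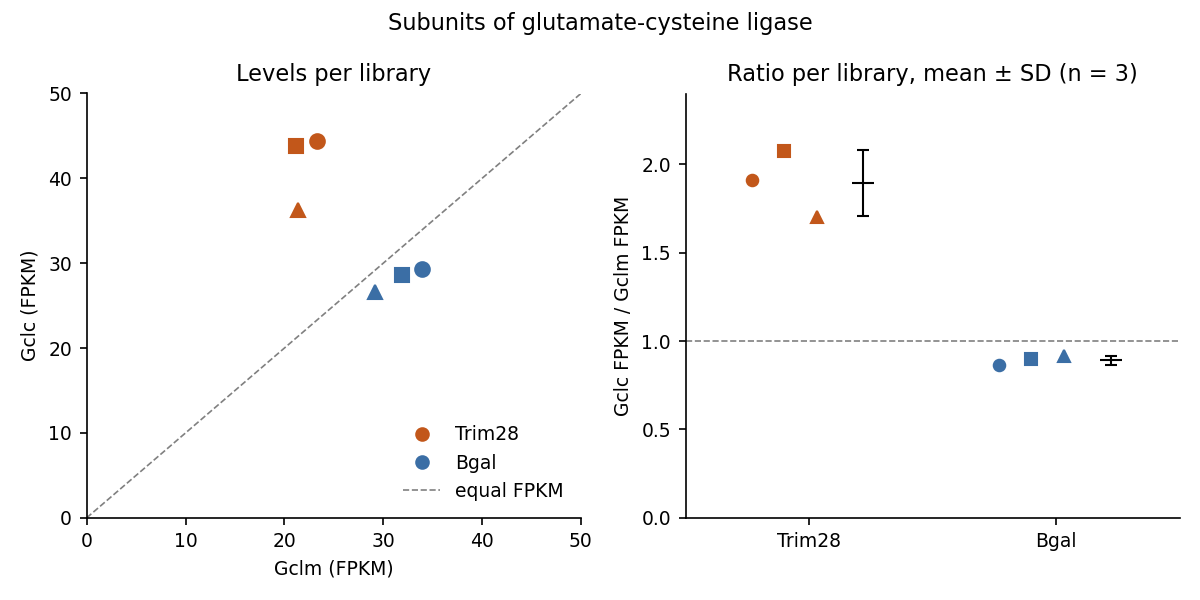
Left, Gclc FPKM against Gclm FPKM, 1 point per library, Trim28 in orange and Bgal in blue, with a dashed line of equal FPKM. Right, the ratio of Gclc to Gclm FPKM per library with mean ± SD (n = 3); the Trim28 libraries lie between 1.70 and 2.07, and the Bgal libraries between 0.864 and 0.913.

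Promoter windows are shown for the ligase subunits, which moved in opposite directions, and for Slc3a2 and Chac1, which hold the other motif matches among the 8 genes. Each runs from 250 bases before the annotated start to 50 after it, 5′ to 3′ on the gene's strand, from RefSeq on build GRCr8. Of the 8 genes, 7 had an entry, all but Gsr. Windows were searched on both strands for TGACNNNGC, the core of the antioxidant response element read by NRF2, and for TTGCATCA, a C/EBP-ATF response element read by ATF4 dimers. No matches of these motifs overlapped, and matches are in capitals.
Gclc, chr8:87510226-87510525, plus strand: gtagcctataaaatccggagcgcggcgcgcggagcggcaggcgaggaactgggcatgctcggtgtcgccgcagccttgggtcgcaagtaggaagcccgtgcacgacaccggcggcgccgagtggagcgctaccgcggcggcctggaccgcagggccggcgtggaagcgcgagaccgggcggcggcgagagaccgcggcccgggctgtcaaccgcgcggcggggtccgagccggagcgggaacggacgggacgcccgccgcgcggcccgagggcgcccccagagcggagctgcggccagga
Gclm, chr2:213031885-213032184, plus strand: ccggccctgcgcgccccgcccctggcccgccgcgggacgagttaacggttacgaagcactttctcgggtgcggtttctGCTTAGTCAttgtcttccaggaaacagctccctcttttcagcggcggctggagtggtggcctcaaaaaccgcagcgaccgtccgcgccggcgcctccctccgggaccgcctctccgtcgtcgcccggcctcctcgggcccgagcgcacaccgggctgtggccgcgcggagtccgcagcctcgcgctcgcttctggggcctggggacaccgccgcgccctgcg
Slc3a2, second of the annotated starts, chr1:215039621-215039920, minus strand: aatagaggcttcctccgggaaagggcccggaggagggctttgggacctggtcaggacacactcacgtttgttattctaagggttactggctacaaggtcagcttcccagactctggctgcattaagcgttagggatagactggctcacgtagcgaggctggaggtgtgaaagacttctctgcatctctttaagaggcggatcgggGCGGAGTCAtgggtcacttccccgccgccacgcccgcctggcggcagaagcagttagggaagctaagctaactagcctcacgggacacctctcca
Chac1, chr3:126795881-126796180, plus strand: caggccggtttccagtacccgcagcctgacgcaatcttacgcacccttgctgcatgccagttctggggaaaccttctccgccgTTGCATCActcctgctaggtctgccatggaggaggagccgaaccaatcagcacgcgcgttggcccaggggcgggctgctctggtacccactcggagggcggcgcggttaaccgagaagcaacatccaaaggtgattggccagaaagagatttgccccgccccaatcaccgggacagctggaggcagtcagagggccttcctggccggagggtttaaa

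The antioxidant core lay on the reverse strand in Gclm as GCTTAGTCA, 172 to 164 bases before the start. The window of Slc3a2 held it as GCGGAGTCA on the reverse strand, 45 to 37 bases before the start. Gclm fell and Slc3a2 rose. Of 33469 promoter windows of this length, 4038 or 12.1% held the core. Chac1 held TTGCATCA, 167 to 160 bases before the start, which 266 windows or 0.795% also held. The windows of Gclc, Slc7a11, Gss and Gpx1 and the other Slc3a2 window held neither run of letters. A match is a description of the sequence and shows no binding.

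Slc3a2 (ENSRNOG00000018487, chromosome 1, 224906554 to 224921092, minus strand) encodes the heavy chain that carries SLC7A11 and several other amino acid exchangers to the cell surface. It stood at 133, 136 and 118 FPKM in Trim28 libraries and at 96.0, 101.6 and 105 FPKM in Bgal libraries. The groups did not overlap, and Trim28 replicate 3 was the nearest to the Bgal level. Slc3a2 rose 1.28-fold, to 129 ± 9.80 FPKM in Trim28 against 100.98 ± 4.75 FPKM in Bgal (SD, n = 3 each), with a log2 change of 0.35 ± 0.07 (SE; limma adjusted p = 0.00468).

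Slc7a11 (ENSRNOG00000010210, chromosome 2, 139453774 to 139528162, minus strand), the light chain xCT that exchanges cystine for glutamate, was the lowest of the 8 genes. Its values were 1.86, 1.85 and 1.72 FPKM in Trim28 libraries and 1.13, 1.36 and 1.45 FPKM in Bgal libraries. The Trim28 values lay above the Bgal values without overlap, yet limma did not call the difference, at 0.28 on the log2 scale (interval at 95% confidence 0.04 to 0.52, adjusted p = 0.0601). It passed in limma-voom on the recovered reads, where the log2 difference was 0.46 and the adjusted p 0.00626, and without the intensity trend. With a pseudocount of 0.1 the log2 difference was 0.44 and was still not called (adjusted p = 0.0658), and over all 13 alternatives the adjusted p reached 0.177, without Bgal replicate 1.

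The light chains known to pair with SLC3A2 were set beside it. Slc7a5, the large neutral amino acid exchanger LAT1, rose to 32.0 ± 4.82 FPKM in Trim28, against 22.5 ± 0.897 FPKM in Bgal (limma adjusted p = 0.00984). It is named because of its values. Slc7a6 stood at 15.9 ± 0.338 FPKM in Trim28 and 15.2 ± 0.328 FPKM in Bgal, Slc7a7 at 3.33 FPKM in Trim28 and 2.88 FPKM in Bgal, and Slc7a8 at 3.53 FPKM in Trim28 and 2.58 FPKM in Bgal, and these 3 did not pass. Slc7a10 was below the level for testing. Slc7a11 made up 3.20% ± 0.157 of the summed FPKM of these 6 light chains in Trim28 and 2.93% ± 0.253 in Bgal. The heavy chain stood at 2.28 ± 0.069 times the light chain sum in Trim28 and 2.26 ± 0.0212 times in Bgal (SD, n = 3 each), a difference within the spread of the libraries.

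Gss (ENSRNOG00000018964, chromosome 3, 151076254 to 151106557, minus strand), the synthetase of the second step, stood at 17.3, 18.5 and 19.96 FPKM in Trim28 libraries and 22.3, 22.8 and 20.8 FPKM in Bgal libraries. The groups did not overlap, though Trim28 replicate 3 came close to Bgal replicate 3. Gss fell to 18.6 ± 1.34 FPKM in Trim28, against 21.96 ± 1.01 FPKM in Bgal (SD, n = 3 each), with a log2 change of -0.23 ± 0.07 (SE; limma adjusted p = 0.0271). Its call was lost in 5 of 14 alternative settings, with adjusted p-values up to 0.089, without Bgal replicate 1 or 2, without Trim28 replicate 1 or 2, and with the replicate block. The ratio of Gclc to Gss, the first step's catalytic subunit over the second step's enzyme, averaged 2.25 ± 0.391 in Trim28 and 1.28 ± 0.0297 in Bgal. Since Gclc rose and Gss fell, each without overlap, this ratio also had to separate the groups, and no test of it is given.

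Gpx1 (ENSRNOG00000048812, chromosome 8, 117117430 to 117118522, plus strand), the selenium-containing peroxidase of cytosol and mitochondria, was the most abundant of the 8 transcripts. It stood at 189, 189 and 203 FPKM in Trim28 libraries and 140.5, 160.0 and 136 FPKM in Bgal libraries. All Trim28 libraries were higher, and unlike for Gclc and Slc3a2 the highest was Trim28 replicate 3. Gpx1 rose 1.33-fold, to 194 ± 8.40 FPKM in Trim28 against 146 ± 12.8 FPKM in Bgal (SD, n = 3 each), with a log2 change of 0.41 ± 0.07 (SE; limma adjusted p = 0.00281). The calls for Gpx1 and Slc3a2 were kept in all 14 alternative settings.

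Gsr (ENSRNOG00000014915, chromosome 16, 62197617 to 62241361, minus strand), the reductase that restores glutathione with NADPH, stood at 17.4, 16.8 and 14.5 FPKM in Trim28 libraries and 13.6, 12.9 and 14.5 FPKM in Bgal libraries. Trim28 replicates 1 and 2 lay above the Bgal libraries and Trim28 replicate 3 lay among them. Limma did not call the log2 difference of 0.23 (interval at 95% confidence 0.04 to 0.42, adjusted p = 0.0585), but it passed without Trim28 replicate 3 (log2 difference 0.31, adjusted p = 0.016) and with a filter of 2 FPKM. An antisense snoRNA entry overlaps Gsr, with at most 1 read in a library.

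Chac1 (ENSRNOG00000014387, chromosome 3, 111160205 to 111163425, plus strand), a cyclotransferase that cleaves glutathione and is a known ATF4 target, stood at 9.41, 9.91 and 9.42 FPKM in Trim28 libraries and 7.53, 7.68 and 9.07 FPKM in Bgal libraries. The groups did not overlap, with Bgal replicate 3 close below the Trim28 libraries. Limma did not call the log2 difference of 0.22 (interval at 95% confidence 0.03 to 0.41, adjusted p = 0.0627), but it passed without Bgal replicate 3 (log2 difference 0.30, adjusted p = 0.02).

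**Figure D3:**
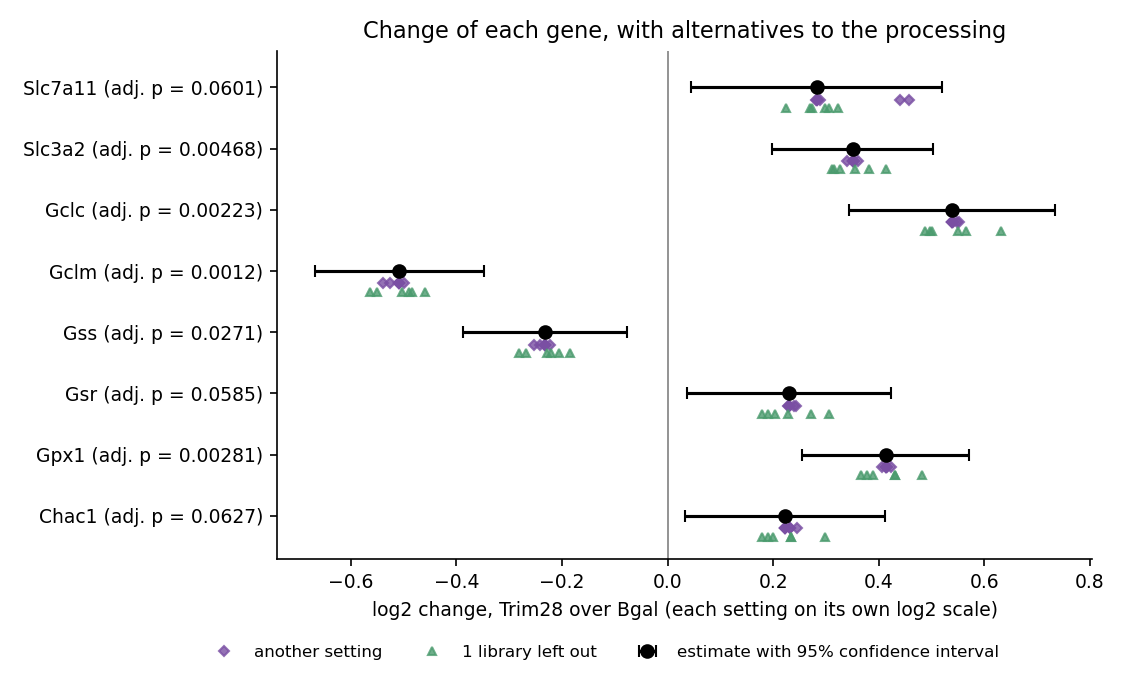
Log2 change of each gene, Trim28 over Bgal, with its 95% confidence interval (black), the estimates under other settings of the fit (violet) and those with 1 library left out (green). No estimate crosses 0, and the largest estimates for Slc7a11 are 0.44 at a pseudocount of 0.1 and 0.46 from recovered reads.

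The Trim28 libraries differed in how far they lay from the Bgal level. Trim28 replicate 3, which had the least Trim28, was the nearest of its group to the Bgal mean for Slc7a11, Slc3a2, Gclc, Gss and Gsr, 5 of the 8 genes. Trim28 replicate 1 was the nearest for Gclm, Gpx1 and Chac1. Among the 5 of these genes that were called, Trim28 replicate 3 was the nearest for 3. Over the 6097 genes called in either direction, Trim28 replicate 3 was the nearest for 44.1%. Whether the level of Trim28 has a part in this was not tested.

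Gene patterns most like those of the ligase subunits were looked up over the 6 libraries, among 6190 other tested genes with a mean of at least 10 FPKM. The highest Pearson correlations of log2(FPKM + 1) with Gclc were those of Obsl1, a cytoskeletal linker of muscle (0.999), Ftl1, the ferritin light chain (0.997), and Cdr2l (0.997). For Gclm they were those of Rilp, an adaptor of lysosome transport (0.999), Adipor2, an adiponectin receptor (0.998), and Bsdc1 (0.997). These describe 6 points in 2 groups that share a library total, and 322 genes passed a correlation of 0.95 with Gclc and 443 with Gclm.

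Around the 8 genes, 11 further lists of the glutathione system were examined. Their counts are read against the 20.1% of all tested genes called higher and the 21.1% called lower. No list was tested as a set. Carriers of cysteine, glutamate, glutamine and glycine were called higher in 6 of 13 tested and lower in 0 (also 0 in limma-voom and at an unadjusted p under 0.05), with a median log2 change of 0.29. Slc1a3, a glutamate carrier, rose to 58.4 ± 4.11 FPKM in Trim28, against 33.0 ± 1.36 FPKM in Bgal. Slc38a2, a glutamine and neutral amino acid carrier, rose to 420 ± 26.6 FPKM in Trim28, against 282 ± 12.7 FPKM in Bgal. Slc1a5, the glutamine carrier ASCT2, rose 1.99-fold, to 9.19 ± 0.143 FPKM in Trim28 against 4.62 ± 0.744 FPKM in Bgal. Limma adjusted p-values of these 3 genes lay between 0.000138 and 0.000702.

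Genes that supply glutamate and glycine were mixed, with 3 of 14 tested higher and 6 lower, the count lower being 3 without Bgal replicate 1 and 2 without Trim28 replicate 1. Psat1, of serine synthesis, rose 1.42-fold (limma adjusted p = 0.00407). Of the same path, Phgdh fell 1.23-fold (limma adjusted p = 0.0369), though its groups overlapped. Psph, of this path too, did not pass, and both are named because of their values. Gcsh, a glycine cleavage protein, fell to 25.9 ± 1.45 FPKM in Trim28, against 38.5 ± 1.77 FPKM in Bgal. Of the methionine cycle and cysteine metabolism, 3 of 17 tested were higher and 3 lower, with a median log2 change of 0.00. Both counts lay near the shares over all tested genes. The count higher was 0 to 1 with any single library left out. Got1, Tst and Mat2b fell, Got1 to 195 ± 5.26 FPKM in Trim28, against 262 ± 8.69 FPKM in Bgal. The transsulfuration enzyme genes were near the floor, and both are named because of their values. Cbs stood at 0.411 FPKM in Trim28 and 0.502 FPKM in Bgal and was not tested. Cth stood at 0.961 ± 0.28 FPKM in Trim28 and 0.426 ± 0.117 FPKM in Bgal. It is among the 3 called higher (limma adjusted p = 0.0386), though in Bgal only replicate 3 reached 0.5 FPKM, the level for testing.

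All 3 tested glutathione peroxidases besides Gpx1 rose. Gpx3, the secreted peroxidase, rose to 318 ± 5.84 FPKM in Trim28, against 162 ± 10.8 FPKM in Bgal (limma adjusted p = 5.93e-05). Gpx7 and Gpx8, of the endoplasmic reticulum, rose 1.41-fold and 1.30-fold. Gpx3 stood at 1.64 ± 0.0435 times Gpx1 in Trim28 and 1.12 ± 0.117 times in Bgal. The remaining 4 were not tested: Gpx5 and Gpx6 were listed at 0 in every library, Gpx2 had at most 12 reads, and Gpx4, the lipid peroxide reductase central to ferroptosis, had 6, 1 and 3 reads in Trim28 libraries and 0, 0 and 1 in Bgal libraries. Gpx4 is used by nearly all cells, and why its entry held so few reads was not tested. No level of Gpx4 is read from it.

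Genes of glutathione breakdown were split, with 3 of 10 tested higher and 3 lower. Dpep1, a membrane dipeptidase that cleaves cysteinylglycine, rose 2.95-fold, to 9.44 ± 0.643 FPKM in Trim28 against 3.20 ± 0.359 FPKM in Bgal (limma adjusted p = 0.000103). Anpep, an aminopeptidase, rose 1.70-fold, and Ggt7, a gamma-glutamyltransferase relative, 2.09-fold. Ggct, the cytosolic cyclotransferase, fell to 5.498 ± 1.24 FPKM in Trim28, against 8.64 ± 0.727 FPKM in Bgal (limma adjusted p = 0.0136), and was chosen after its values were seen. Chac2, the relative of Chac1, did not pass, at 2.52 ± 0.365 FPKM in Trim28 and 3.11 ± 0.495 FPKM in Bgal. Fibroblast, mural and leukocyte markers were higher in the same libraries, with the values given above.

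The following lists are likewise read against the 20.1% of all tested genes called higher and the 21.1% called lower. Of 9 tested glutaredoxin and glyoxalase genes 6 fell and 1 rose, among them Glrx5, of mitochondrial iron-sulfur assembly, at 64.0 ± 2.51 FPKM in Trim28 and 86.3 ± 1.55 FPKM in Bgal. Esd fell 1.27-fold and Glrx, the cytosolic glutaredoxin, rose 1.63-fold. Of 17 tested glutathione transferases 7 fell and 3 rose. Mgst3 fell to 64.4 ± 9.35 FPKM in Trim28, against 118 ± 4.44 FPKM in Bgal, Mgst2 rose 2.09-fold, and Gstm1, which shares sequence with other mu-class genes and is therefore uncertain, fell 1.42-fold. Of 9 tested glutathione transport genes 4 fell and 0 rose (1 was higher in limma-voom, and 1, the exporter Abcc3, at an unadjusted p under 0.05): Slc25a11, the oxoglutarate carrier, stood at 136 ± 1.82 FPKM in Trim28 and 185 ± 4.89 FPKM in Bgal, and Slc25a39, the mitochondrial glutathione importer, at 71.0 ± 3.14 FPKM in Trim28 and 82.3 ± 4.20 FPKM in Bgal. Slc25a39 lost its call without Trim28 replicate 1 or 3, and the count of 4 fell to 2 without Trim28 replicate 1.

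NADPH, which GSR consumes, is supplied by several enzymes, and of 18 tested 6 fell and 2 rose. Of the mitochondrial sources, Idh2 fell to 147 ± 2.96 FPKM in Trim28, against 208 ± 5.00 FPKM in Bgal. Nnt fell to 96.4 ± 5.32 FPKM in Trim28, against 132 ± 6.25 FPKM in Bgal. Of 13 tested genes of selenoprotein synthesis, on which Gpx1 protein depends, 2 fell (Lrp8, 1.24-fold, and Pstk, 1.29-fold), 0 rose (also 0 in limma-voom and at an unadjusted p under 0.05) and 11 did not pass, among them Secisbp2.

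**Figure D4:**
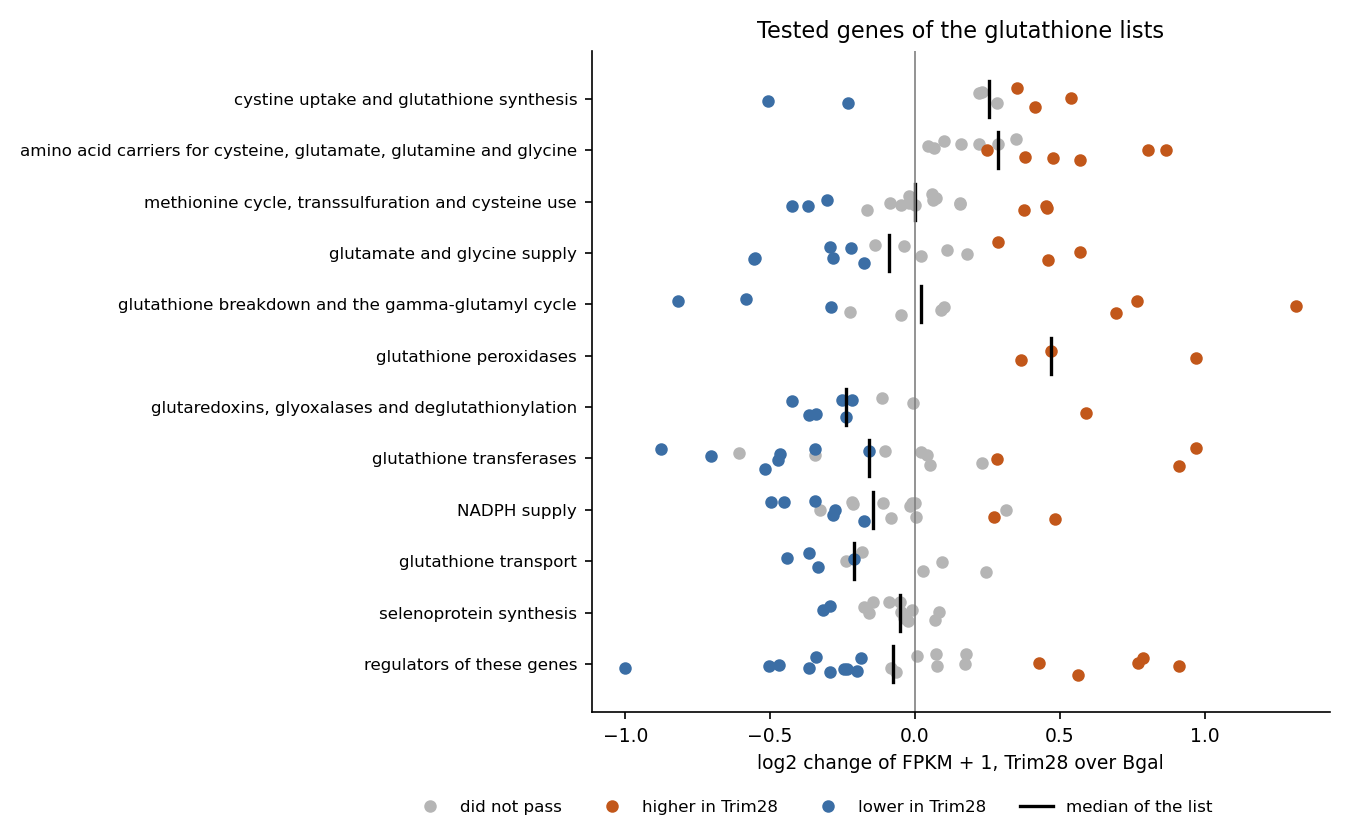
Log2 change of FPKM + 1, Trim28 over Bgal, of each tested gene of the 8 and of 11 further lists; orange points were called higher, blue lower and grey did not pass, and black bars are list medians. The 3 tested peroxidases besides Gpx1 and the amino acid carriers lie to the right of 0, and the medians of the transferase, NADPH and transport lists to the left.

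Regulators of these genes were also split, with 10 of 22 tested lower, 5 higher and 7 that did not pass. Mafk, a small MAF partner of NRF2, rose to 40.8 ± 1.12 FPKM in Trim28, against 21.3 ± 1.33 FPKM in Bgal (limma adjusted p = 7.9e-05). Ddit3, the stress factor CHOP, fell to 32.2 ± 3.80 FPKM in Trim28, against 65.1 ± 1.51 FPKM in Bgal. Cd44, also of this list, rose 1.80-fold. The next 4 were chosen after their values were seen. Nfe2l2, the gene of NRF2, was at 73.2 ± 4.21 FPKM in Trim28 and 101.6 ± 4.11 FPKM in Bgal, and fell. Keap1, the adaptor that degrades NRF2, fell 1.20-fold at a limma adjusted p of 0.0475, though its groups overlapped. Atf4 stood at 143 ± 9.14 FPKM in Trim28 and 151 ± 12.7 FPKM in Bgal and did not pass (limma adjusted p = 0.402). Trib3 fell to 9.85 ± 1.54 FPKM in Trim28, against 14.3 ± 0.475 FPKM in Bgal.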

How the data were processed

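Poly(A) RNA of 6 libraries was sequenced in read pairs on an Illumina instrument after dUTP marking of the second strand, per the labels' protocols. The authors deposited 1 table of FPKM values per the file headers, with no pooling. HISAT2 2.0.5 and DESeq2 were used, per the submitters' processing notes, and the sources used here give no counting tool, strand setting, genome build or annotation. FPKM divides by the library total, so a very abundant gene lowers the others. Multiplying FPKM by gene length and dividing by a constant of each library gave whole reads, to within 0.01 of a read, for 100% of values. The rows held all but 0.33% to 2.74% of the totals behind the FPKM. One read on 1 kilobase equalled 0.0281 to 0.0381 FPKM. The table had 0 columns of other samples.

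Values were compared as log2(FPKM + 1) by limma 3.58.1 (R 4.3.3) with its intensity trend, in two-sided tests adjusted by Benjamini-Hochberg over all 14808 tested genes, after a test on simulated data. Log2 changes are of FPKM + 1, which understates changes of low genes; folds are ratios of mean FPKM. SDs are over 3 libraries. The 8 genes, the lists and the tests were chosen with earlier results of these data known. The rule for names took the 8 genes, up to 3 genes of each list with the smallest p-values, the glutathione peroxidases below the level for testing, and the 3 genes most like Gclc and Gclm. Ttn, Pecam1, Itgam and Pgd were not analysed here, and some genes that the rule took are counted in their lists but not reported here.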

Additional observations from a re-analysis of the deposited data

How the results depend on the processing

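The fit was repeated under 8 other settings (pseudocount, filters, scalings, trend, voom on recovered reads, replicate block) and with each of the 6 libraries left out. Over all tested genes, the other settings gave 2588 to 3070 called higher and 2726 to 3433 lower, and leaving out a library gave 2249 to 2645 and 2402 to 2928. Of the 8 glutathione genes, 3 to 4 were called higher under both kinds of change. The number lower was 1 with the replicate block, and 1 to 2 when a library was left out, since Gss lost its call. The log2 difference of the Gclc to Gclm ratio was 1.05 with FPKM + 1, 1.08 with the replicate block, and 1.02 to 1.16 with a library left out. Of 573 alternative values for the 41 genes taken by the rule for names, 560 kept their side of the threshold, 7 lost the call, 6 gained it and 0 changed direction.

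Same-numbered libraries correlated in their deviations from the group means at -0.02, 0.13 and 0.01, and differently numbered ones at -0.09 to 0.08. With 3 libraries per group, these values cannot show whether same-numbered libraries share a culture or batch. The sources used here do not say. The replicate block changed no call of the 8 genes besides that of Gss. Slc7a11 and Chac1 rest on at most 489 reads a library, and intervals reflect only the variation between these libraries.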
